A study of Sus scrofa domesticus with 150 samples.

Results

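The late wound edge was the latest sampling of a porcine wound healing series: 6 biopsies from the edge of excisional skin wounds, 3 taken on day 19 and 3 on day 21 after wounding. They were chosen by their labels alone, as every edge sample of these days among the 150 sequenced samples of the series, and were compared with the 6 samples of unwounded skin excised on day 0. The series followed 6 female domestic pigs of a Yorkshire-mix breed (animals 1323 to 1328; their age was not given in the sources used here), each carrying full-thickness circular excisions on the back. All wounds were covered with Telfa Clear and Tegaderm dressings and received nothing else, apart from an antibiotic ointment on biopsy sites. The comparison asks how the wound edge differed from unwounded skin when sampling ended. Day 19 samples came from pigs 1326, 1327 and 1328 and day 21 samples from pigs 1323, 1324 and 1325, all from the wound lettered I, so the day and the animals sampled cannot be told apart. Day 0 tissue was the whole disk of skin removed to make a wound, with 1 sample per pig, whereas edge tissue was a small punch biopsy, so the kind of tissue taken and the time since wounding cannot be told apart either.

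Healing of a full-thickness wound passes through inflammation, formation of granulation tissue and closure by keratinocytes into a long phase of remodelling, in which fibroblasts deposit, cross-link and degrade collagen. Hair follicles, sebaceous glands and sweat glands lie in the dermis, are cut away with the full thickness of the skin, and are commonly missing from scar tissue. Pig skin resembles human skin in its thick epidermis, sparse hair and firm attachment to the tissue below, which is why pigs are used to study wounds.

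The measurement was RNA sequencing of poly-A enriched libraries, given as read counts for 30461 genes. Total counts ranged from 15698806 to 21415735 in day 0 skin and from 16337912 to 19645023 at the late edge. Levels below are counts per 1000000 counts of a library (CPM), with each library's total scaled by trimmed mean of M values (TMM). Fold changes are log2 values of late edge over day 0 skin (n = 6 against 6), with standard errors, from edgeR's quasi-likelihood test, and p-values are adjusted by Benjamini-Hochberg over all genes tested, with 0.05 as the threshold for a call. The p-values measure the spread between samples of different pigs, and an alternative fit took the animal as a block, pairing each late sample with the day 0 skin of the same pig. Of 14743 genes with enough reads to test, 3009 (20.4%) were higher and 2950 (20%) lower at the late edge, and the median log2 fold change over all of them was -0.03. With total counts alone as library size the median fell to -0.25 and the calls to 2099 higher against 5188 lower, so a small change is best read relative to that shift. Every late sample lay above every day 0 sample for 11.7% of genes tested and below for 8.16%, the background for the groups described as not overlapping. RNA came from whole tissue, in which fewer cells of a type and less RNA per cell cannot be told apart.

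Both tissues carried the keratins of stratified epidermis, as skin should. KRT10 (ENSSSCG00025042112), a keratin of differentiated keratinocytes, ranged from 8862 to 24178 CPM (median 16682) in day 0 skin, was 9151, 20238 and 22998 CPM on day 19 and 31099, 13931 and 15318 CPM on day 21, and did not pass the test (log2 fold change 0.12 ± 0.29, adjusted p = 0.774). Across 38 lists of genes grouped by cell type or function, drawn up with earlier results of these data known, the largest shares of higher members were found for fibrillar collagens, macrophages, T and NK lymphocytes, neutrophils and matricellular proteins. The largest shares of lower members were found for gland epithelium, smooth muscle, immediate early genes and melanocytes. The lists held 518 genes, of which 488 were found by symbol and 441 had enough reads to test.

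**Figure D1:**
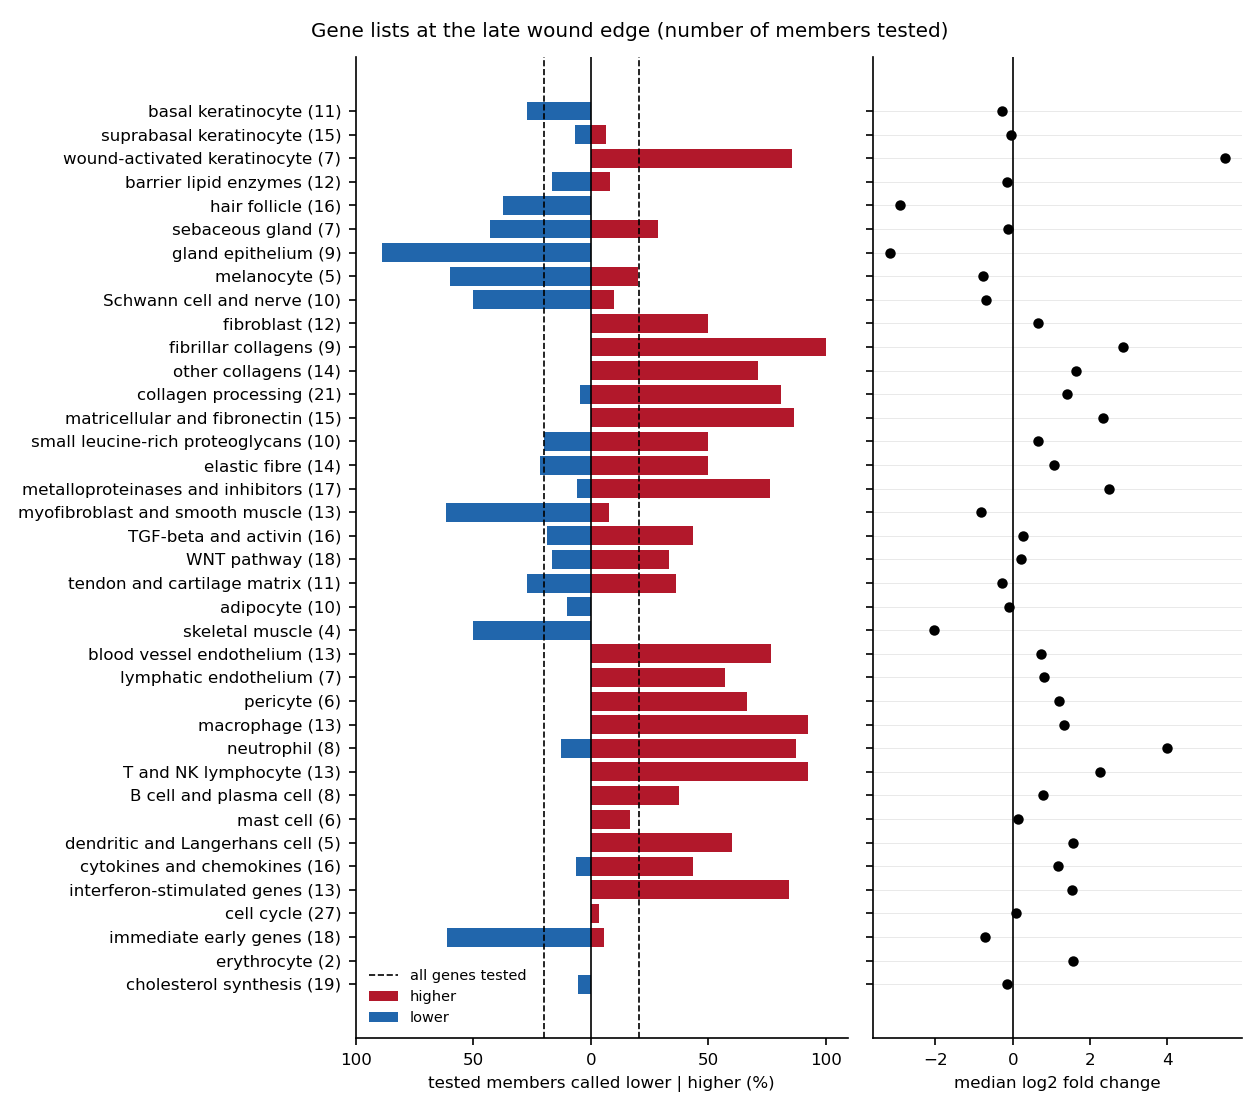
Gene lists at the late wound edge against day 0 skin (6 samples each). Left, percentage of tested members called higher (red, to the right) or lower (blue, to the left), with dashed lines at the percentages over all genes tested (20.4 and 20); right, median log2 fold change of the tested members. All 9 fibrillar collagens tested were higher and 8 of 9 gland epithelium genes were lower.

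Fibrillar collagens, which form the tensile fibres of the dermis, were raised without exception among those tested. All 9 tested members (of 10 listed; COL2A1 had too few reads) were higher, with a median log2 fold change of 2.87. COL3A1 (ENSSSCG00025064886), the type III collagen of young dermal fibres, ranged from 12224 to 36589.6 CPM (median 18549.8) in day 0 skin. It reached 54265, 50990.3 and 75581 CPM on day 19 and 54404, 65517 and 67308 CPM on day 21. The groups did not overlap, and the change was 2.73-fold (log2 fold change 1.45 ± 0.24, adjusted p = 0.000491). Counts of COL3A1 made up 5.66% ± 0.887 (SD, n = 6) of all counts at the late edge against 2.38% ± 0.901 (SD, n = 6) in day 0 skin. The type I chains COL1A1 (log2 fold change 1.51 ± 0.28, adjusted p = 0.000982) and COL1A2 (log2 fold change 1.15 ± 0.27, adjusted p = 0.00479) rose too, and COL1A1 made up 5.97% ± 0.789 (SD, n = 6) of all counts against 2.39% ± 1.15 (SD, n = 6). Of the minor fibrillar chains, some of which regulate fibre diameter, COL11A1, COL5A1, COL5A2, COL24A1 and COL27A1 had larger fold changes than the type I and III chains, and COL5A3 a smaller one. COL11A1 (ENSSSCG00025018266) ranged from 5.65 to 41.9 CPM (median 15.4) in day 0 skin and was 409.7, 263 and 390.1 CPM on day 19 and 206, 513 and 291 CPM on day 21, every late sample lying above every day 0 sample (log2 fold change 4.13 ± 0.45, adjusted p = 2.21e-05). COL5A2 (log2 fold change 3.25 ± 0.24, adjusted p = 1.4e-06), COL5A1 (2.93, adjusted p = 6.44e-06), COL24A1 (3.64, adjusted p = 3.14e-06) and COL27A1 (2.87, adjusted p = 1.61e-06) also rose without overlap. COL5A3 rose least (0.64, adjusted p = 0.0106) and lost its call when the edge samples of every day and day 0 skin entered 1 fit (adjusted p = 0.0704).

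Collagens outside the fibrillar class followed in part, with 10 of 14 tested members higher and 0 lower (median 1.65). With the animal as a block 7 were higher, as COL7A1, COL18A1 and COL6A6 lost their calls (adjusted p = 0.148, 0.0632 and 0.0644). COL7A1 also lost its call without the sample of day 0 (pigs 1323, 1326, 1327 or 1328) or day 19 (pigs 1326, 1327 or 1328), with adjusted p from 0.0539 to 0.0764. COL8A1, a short-chain collagen of vessel walls and wounds, rose by 3.53 on the log2 scale (adjusted p = 0.000102). The fibre-associated COL16A1 (3.45, adjusted p = 6.72e-07) and COL12A1 (2.66, adjusted p = 5.3e-06) rose as well. The basement membrane chains COL4A1 and COL4A2 rose by 1.78 and 1.65 (adjusted p = 0.000174 and 0.000204). COL14A1, a fibre-associated collagen of mature dermis, did not pass the test (log2 fold change 0.30 ± 0.32, adjusted p = 0.482).

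Enzymes and chaperones that make and cross-link collagen were raised in most members: 17 of 21 tested genes were higher and 1 lower (median 1.40). PLOD2 (ENSSSCG00025024710), the lysyl hydroxylase of collagen telopeptides, had the lowest adjusted p of all genes tested. It ranged from 7.25 to 11.3 CPM (median 9.20) in day 0 skin. Its level was 103, 89.3 and 79.7 CPM on day 19 and 61.0, 93.4 and 91.3 CPM on day 21. The lowest late sample was well above the highest day 0 sample, and the change was 9.24-fold (log2 fold change 3.21 ± 0.14, adjusted p = 7.1e-08). SERPINH1, the collagen chaperone HSP47 (log2 fold change 2.47 ± 0.16, adjusted p = 7.22e-07), the lysyl hydroxylase PLOD3 (log2 fold change 1.88 ± 0.13, adjusted p = 7.8e-07), the prolyl hydroxylase subunit P4HA3 (log2 fold change 3.65 ± 0.38, adjusted p = 1.47e-05) and ADAMTS14, a procollagen N-proteinase (log2 fold change 3.58 ± 0.56, adjusted p = 0.0003), rose too. Among the lysyl oxidases, which cross-link collagen and elastin, LOXL2 (log2 fold change 3.67 ± 0.27, adjusted p = 1.27e-06) and LOXL1 (2.95, adjusted p = 2.83e-06) rose, LOX itself did not pass the test (0.16 ± 0.30, adjusted p = 0.7) and LOXL4 (ENSSSCG00025076231) fell. LOXL4 ranged from 14.2 to 26.0 CPM (median 18.5) in day 0 skin and was 2.54, 3.42 and 5.73 CPM on day 19 and 8.28, 12.6 and 6.13 CPM on day 21, all late samples lying below all day 0 samples (log2 fold change -1.59 ± 0.32, adjusted p = 0.00183).

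**Figure D2:**
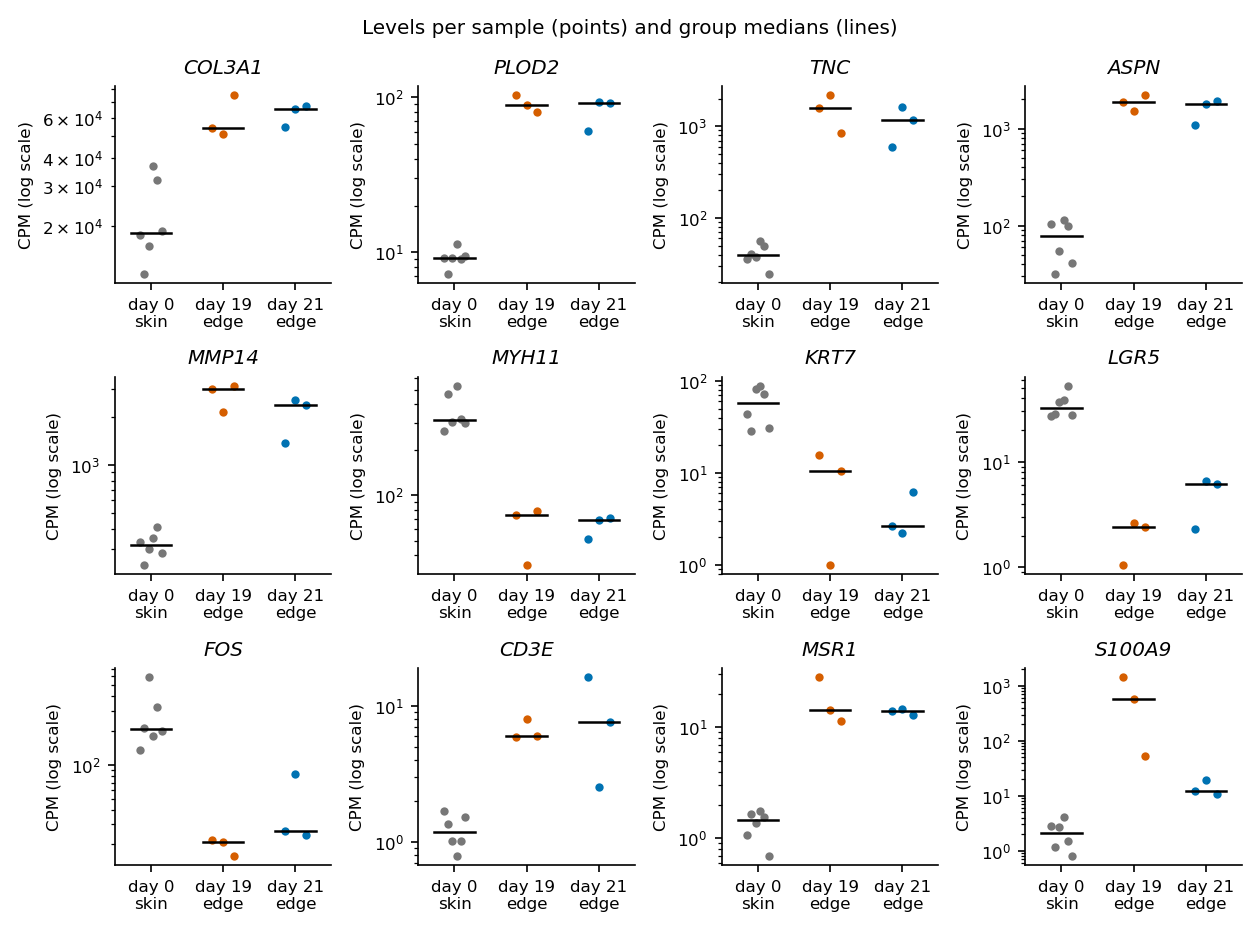
CPM (log scale) of 12 genes in each sample of day 0 skin (grey, 6 pigs), day 19 edge (orange, 3 pigs) and day 21 edge (blue, 3 pigs), with group medians as lines. COL3A1, PLOD2, TNC, ASPN, MMP14, CD3E, MSR1 and S100A9 lie higher at the late edge in every sample than in any day 0 sample, and MYH11, KRT7, LGR5 and FOS lie lower. Of the 12 S100A9 differs most between the days (from 52.3 to 1458 CPM on day 19 and from 10.7 to 19.0 CPM on day 21).

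Matricellular proteins, which sit in the matrix and signal to cells rather than bear load, rose in 13 of 15 tested genes and fell in 0 (median 2.33). TNC (ENSSSCG00025029386), the wound glycoprotein tenascin C, ranged from 24.5 to 56.6 CPM (median 39.1) in day 0 skin. It was 1579, 2196 and 852 CPM on day 19 and 601, 1605 and 1161 CPM on day 21. No late sample came near the day 0 range, and the difference was 32.4-fold (log2 fold change 5.02 ± 0.33, adjusted p = 7.22e-07). CTHRC1, a secreted protein of injured fibroblasts (log2 fold change 3.85 ± 0.31, adjusted p = 2.22e-06), TGFBI (log2 fold change 3.29 ± 0.32, adjusted p = 8.29e-06), THBS2 (2.45, adjusted p = 5.49e-06) and FN1, fibronectin (log2 fold change 2.33 ± 0.27, adjusted p = 3.81e-05), were higher without overlap. POSTN, periostin, rose less, and its groups overlapped (log2 fold change 1.43 ± 0.28, adjusted p = 0.0016). SPARC, osteonectin, rose by 0.95 (adjusted p = 0.00347). THBS1 did not pass the test (0.36 ± 0.26, adjusted p = 0.287).

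The small leucine-rich proteoglycans, which bind collagen and set fibre spacing, split by member, with 5 of 10 tested higher and 2 lower (median 0.66). Over all genes tested 20.4% were higher and 20% lower. ASPN (ENSSSCG00025013709), asporin, ranged from 31.6 to 114 CPM (median 77.2) in day 0 skin. It was 1874, 1508 and 2225 CPM on day 19 and 1102, 1796 and 1921 CPM on day 21, far above every day 0 sample (log2 fold change 4.54 ± 0.35, adjusted p = 1.61e-06). Fibromodulin FMOD (log2 fold change 3.16 ± 0.27, adjusted p = 3.14e-06), lumican LUM (log2 fold change 2.58 ± 0.17, adjusted p = 7.22e-07) and biglycan BGN (2.52, adjusted p = 1.93e-07) rose. Decorin DCN, the most familiar member in skin, gave 0.03 ± 0.23 (adjusted p = 0.942). Keratocan KERA (-2.18, adjusted p = 0.0469) and osteomodulin OMD (-1.10, adjusted p = 0.0254) were the lower members. The call of KERA was lost with the animal as a block (adjusted p = 0.128) and without the sample of day 0 (pigs 1323, 1324, 1326, 1327 or 1328), day 19 (pig 1328) or day 21 (pig 1325), with adjusted p from 0.0571 to 0.0878. With no filter on low counts it was 0.0512. The call of OMD was lost with the animal as a block (adjusted p = 0.0843) and without the day 0 sample of pig 1326 (adjusted p = 0.0537) or pig 1327 (adjusted p = 0.0571).

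Elastic fibre genes were mixed: 7 of 14 tested rose and 3 fell (median 1.07), against 20.4% and 20% over all genes tested. The microfibril genes EMILIN1 (log2 fold change 2.57 ± 0.24, adjusted p = 6.34e-06), EMILIN2 (1.95, adjusted p = 1.55e-05), EFEMP2 (1.96, adjusted p = 1.33e-05), MFAP2 (2.21, adjusted p = 7.03e-06) and FBN1, fibrillin 1 (1.72, adjusted p = 3.2e-05), were higher. LTBP4, which assists elastic fibre assembly (log2 fold change -1.34 ± 0.18, adjusted p = 0.000113), and EFEMP1 (log2 fold change -1.09 ± 0.21, adjusted p = 0.00122) were lower, both without overlap. Elastin itself, ELN, did not pass the test (0.07 ± 0.43, adjusted p = 0.912).

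Proteases that degrade matrix rose beside the matrix genes, in 13 of 17 tested metalloproteinases and inhibitors, with 1 lower (median 2.48). MMP14 (ENSSSCG00025074208), a collagenase anchored in the cell membrane, ranged from 236 to 412 CPM (median 314) in day 0 skin and was 3007, 2145 and 3133 CPM on day 19 and 1370, 2573 and 2374 CPM on day 21. These values did not overlap (log2 fold change 2.93 ± 0.20, adjusted p = 8.58e-07). Its substrate proMMP2, the gelatinase gene MMP2, rose by 2.48 (adjusted p = 3.71e-05), MMP19 by 2.00 (adjusted p = 4.81e-06), the stromal protease MMP11 by 3.52 (adjusted p = 9.44e-06) and the aggrecanase ADAMTS4 by 4.00 (adjusted p = 1.8e-06). The interstitial collagenase MMP13 (ENSSSCG00025038297) ranged from 0 to 0.557 CPM (median 0.383) in day 0 skin, was 139, 68.5 and 23.4 CPM on day 19 and 2.42, 0.459 and 4.71 CPM on day 21, and was called higher (log2 fold change 6.83 ± 1.31, adjusted p = 0.00123). On day 21, 1 sample lay inside the day 0 range and 2 lay above it. The log2 fold change of MMP13 was 5.82 without the day 19 sample of pig 1326 and 4.48 without those of pigs 1326 and 1327. Of the tissue inhibitors, TIMP1 (1.85, adjusted p = 4.81e-06) and TIMP2 (2.25, adjusted p = 5.43e-05) rose and TIMP3 (ENSSSCG00025027092), the one bound to matrix, fell. TIMP3 ranged from 33.8 to 93.5 CPM (median 60.0) in day 0 skin and was 18.6, 9.13 and 30.4 CPM on day 19 and 15.9, 22.4 and 23.9 CPM on day 21 (log2 fold change -1.65 ± 0.28, adjusted p = 0.000516).

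Fibroblast genes were raised in 6 of 12 tested members and lowered in 0 (median 0.65). The receptors of platelet-derived growth factor that mark fibroblasts, PDGFRB (log2 fold change 1.82 ± 0.23, adjusted p = 6.95e-05) and PDGFRA (log2 fold change 1.5 ± 0.17, adjusted p = 3e-05), rose without overlap, as did the type VI collagen chain COL6A1 (1.48, adjusted p = 8.51e-05). PI16 and CD34, carried by fibroblasts of unwounded skin, did not pass the test (log2 fold changes -1.68 ± 0.64 and -0.45 ± 0.20, adjusted p = 0.0502 and 0.0874).

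Contractile genes moved the other way from the matrix. Of 13 tested genes of myofibroblasts and smooth muscle, 8 were lower and 1 was higher (median -0.81), the exception being the actin-binding CALD1 (log2 fold change 1.32 ± 0.16, adjusted p = 4.51e-05). MYH11 (ENSSSCG00025014070), the smooth muscle myosin heavy chain, ranged from 265 to 529.7 CPM (median 315) in day 0 skin. It was 74.2, 34.5 and 78.9 CPM on day 19 and 51.7, 68.3 and 70.5 CPM on day 21. The groups did not overlap, and the level was 5.84-fold lower (log2 fold change -2.55 ± 0.23, adjusted p = 4.81e-06). Calponin CNN1 (log2 fold change -2.42 ± 0.32, adjusted p = 8.73e-05) and desmin DES (log2 fold change -2.03 ± 0.31, adjusted p = 0.000222) fell likewise. ACTA2 (ENSSSCG00025063978), the smooth muscle actin that also marks myofibroblasts, ranged from 266 to 574 CPM (median 363) in day 0 skin. It was 269.5, 277 and 182 CPM on day 19 and 136, 146 and 139.9 CPM on day 21, and fell with overlap between the groups (log2 fold change -0.99 ± 0.23, adjusted p = 0.00458). TAGLN, transgelin, did not pass the test (-0.10 ± 0.24, adjusted p = 0.776). Smooth muscle in pig skin includes the hair erector muscles and the walls of larger vessels, whose share of the whole disk and of a punch biopsy was not measured.

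Growth factor genes of the TGF-beta and activin family gave 7 higher and 3 lower of 16 tested (median 0.28), against 20.4% and 20% over all genes tested. INHBA (ENSSSCG00025000347), the activin A subunit, ranged from 1.81 to 3.70 CPM (median 3.27) in day 0 skin and was 54.1, 51.3 and 69.9 CPM on day 19 and 30.7, 56.8 and 49.7 CPM on day 21, with no overlap (log2 fold change 4.06 ± 0.21, adjusted p = 1.93e-07). The ligands TGFB1 (log2 fold change 2.00 ± 0.17, adjusted p = 3.52e-06) and TGFB3 (log2 fold change 2.02 ± 0.26, adjusted p = 6.67e-05) rose, while BMP2 (log2 fold change -1.44 ± 0.14, adjusted p = 1.13e-05) and BMP4 (-1.58, adjusted p = 0.000754), ligands of the bone morphogenetic branch, fell. SMAD7, a common target of TGF-beta, did not pass the test (log2 fold change -0.43 ± 0.22, adjusted p = 0.137).

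Of 18 tested WNT pathway genes, 6 were higher and 3 lower (median 0.21), against 20.4% and 20% over all genes tested. With the animal as a block 4 were higher and 3 lower. The ligands WNT2 (log2 fold change 2.95 ± 0.59, adjusted p = 0.00158) and WNT5A (log2 fold change 1.67 ± 0.20, adjusted p = 4.52e-05) and the secreted modulators SFRP2 (log2 fold change 2.51 ± 0.46, adjusted p = 0.000902) and DKK3 (log2 fold change 1.13 ± 0.21, adjusted p = 0.00109) rose. WIF1 (ENSSSCG00025057458), another secreted antagonist, ranged from 3.35 to 25.1 CPM (median 8.83) in day 0 skin and was 0.805, 0.621 and 0.860 CPM on day 19 and 0.906, 4.64 and 2.52 CPM on day 21. Only pig 1324's day 21 sample reached the day 0 range, and WIF1 fell by 2.58 on the log2 scale (adjusted p = 0.00417), or by 3.19 without that sample. AXIN2, a target gene of the beta-catenin branch, gave -0.01 ± 0.13 (adjusted p = 0.975).

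Some genes best known from tendon, cartilage and bone were higher (4 of 11 tested, with 3 lower and a median of -0.28). The shares over all genes tested were 20.4% higher and 20% lower. TNMD (ENSSSCG00025054655), tenomodulin of tendons and ligaments, ranged from 0 to 0.658 CPM (median 0.522) in day 0 skin. It was 4.21, 5.28 and 10.4 CPM on day 19 and 6.22, 12.7 and 11.0 CPM on day 21, low in absolute level but above day 0 skin in every late sample (log2 fold change 4.32 ± 0.56, adjusted p = 7.38e-05). FIBIN (log2 fold change 4.20 ± 0.36, adjusted p = 3.4e-06), the bone transcription factor RUNX2 (log2 fold change 2.83 ± 0.27, adjusted p = 7.74e-06) and the proteoglycan aggrecan ACAN (log2 fold change 2.94 ± 0.49, adjusted p = 0.000455) also rose. SOX9, the transcription factor of cartilage and of hair follicle stem cells, fell (log2 fold change -1.53 ± 0.27, adjusted p = 0.000593).

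Among genes of skin appendages, those of gland epithelium were mostly lower at the late edge. Of 9 gland epithelium genes tested, 8 were lower, 3 of them without overlap, and 0 higher (median -3.18). KRT7 (ENSSSCG00025014496), a keratin of simple gland epithelium, ranged from 28.4 to 88.3 CPM (median 57.7) in day 0 skin. It was 15.6, 0.993 and 10.5 CPM on day 19 and 2.66, 2.23 and 6.26 CPM on day 21. The highest late sample lay under the lowest day 0 sample, and the level was 9.08-fold lower (log2 fold change -3.18 ± 0.58, adjusted p = 0.000853). The paired simple keratins KRT8 (log2 fold change -3.36 ± 0.59, adjusted p = 0.000682) and KRT18 (log2 fold change -3.64 ± 0.57, adjusted p = 0.000291) and the epithelial transcription factor ELF5 (log2 fold change -2.77 ± 0.48, adjusted p = 0.000591) fell as well. FOXA1, a transcription factor of gland epithelium, fell by 3.48 (adjusted p = 0.00703), with a log2 fold change of -4.62 without the day 19 sample of pig 1326, whose 7.74 CPM compared with 0 and 1.38 CPM in the other day 19 samples. AQP5, the water channel of secretory cells, was the member that was not called (1.44 ± 0.63, adjusted p = 0.0825). EHF lost its call without the day 0 sample of pig 1323, 1325, 1326 or 1328 (adjusted p from 0.0535 to 0.0674). The same held without pig 1328's day 19 sample or the day 21 sample of pig 1324 or 1325 (adjusted p from 0.0609 to 0.0631). With all edge days in 1 fit EHF, PIP and SLC12A2 lost their calls (adjusted p = 0.0674, 0.0624 and 0.0858).

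Hair follicle genes were lower in 6 of 16 tested and higher in 0 (median -2.92). LGR5 (ENSSSCG00025048215), the receptor on hair follicle stem cells, ranged from 27.2 to 52.2 CPM (median 32.5) in day 0 skin. It was 1.05, 2.61 and 2.41 CPM on day 19 and 2.30, 6.65 and 6.13 CPM on day 21. All late samples lay far below day 0 skin (log2 fold change -3.32 ± 0.38, adjusted p = 3.21e-05). FOXN1, a transcription factor of hair differentiation (log2 fold change -2.15 ± 0.38, adjusted p = 0.000713), and HOXC13, a regulator of hair keratins (log2 fold change -2.48 ± 0.53, adjusted p = 0.0026), fell. The hair keratins themselves were patchy. KRT31 (ENSSSCG00025026635), a keratin of the hair cortex, ranged from 2.45 to 1639 CPM (median 815) in day 0 skin, was at 0, 0 and 0 CPM on day 19 and was 106, 208 and 11.2 CPM on day 21. KRT31, KRT35, KRT73, KRT85 and TCHH had no read in any of the 3 day 19 samples, where 3 counts, the limit that a count of 0 allows, would be 0.186, 0.186 and 0.172 CPM. The day 0 sample of pig 1324 held almost none of them either: the summed level of the listed hair follicle genes was 98.5 CPM in it, against 5213 to 20682 CPM in the 5 other day 0 samples. KRT31 did not pass the test (adjusted p = 0.0978). KRT34, KRT72 and the hair enzyme PADI3 were called lower, and each lost its call with the animal as a block (adjusted p = 0.0668, 0.06 and 0.0856). PADI3 also lost it without the sample of day 0 (pigs 1323, 1325, 1326 or 1328), day 19 (pigs 1326, 1327 or 1328) or day 21 (pig 1325), with adjusted p from 0.0658 to 0.0769, and without the day 19 samples of pigs 1326 and 1327 together (adjusted p = 0.115). Hair keratins are close copies of one another, between which reads may have been shared, and the number of follicles in each sample was not measured.

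Of 7 sebaceous gland genes tested 2 were higher, 3 lower and 2 not called, against 20.4% higher and 20% lower over all genes. DGAT2L6, another gene of the list, did not pass the filter on reads. It ranged from 0.435 to 21.8 CPM (median 6.45) in day 0 skin and had no read in any late sample. AWAT2 (ENSSSCG00025024533), a wax synthase of sebocytes, ranged from 1.02 to 1.68 CPM (median 1.16) in day 0 skin. It had no read in 5 of the 6 late samples and 0.115 CPM in pig 1324's day 21 sample, and was called lower (adjusted p = 3.07e-05). FA2H, a fatty acid hydroxylase, fell by 3.09 on the log2 scale (adjusted p = 0.0108), or by 3.93 without pig 1326's day 19 sample. ELOVL3, a fatty acid elongase, was called lower (adjusted p = 0.0247) but not with the block (adjusted p = 0.0772) nor without pig 1326's day 0 sample (adjusted p = 0.0518). FADS2, a fatty acid desaturase (log2 fold change 2.15 ± 0.23, adjusted p = 1.94e-05), and SOAT1, which esterifies cholesterol (log2 fold change 2.34 ± 0.24, adjusted p = 1.47e-05), are listed with the sebaceous gland but are also made by other cells, and both rose.

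Genes of the nerve sheath were lower in 5 of 10 tested and higher in 1 (median -0.69). PRX (log2 fold change -0.84, adjusted p = 0.0076) and MBP (log2 fold change -0.74, adjusted p = 0.00167), which belong to myelin and its Schwann cells, fell, and the adhesion molecule L1CAM rose (log2 fold change 1.57 ± 0.33, adjusted p = 0.00218). Among 5 melanocyte genes tested of 10 listed, 3 were lower and 1 higher. PMEL, the melanosome fibre protein, ranged from 0.750 to 1.36 CPM (median 1.22) in day 0 skin and from 0.121 to 0.435 CPM at the late edge (log2 fold change -1.89 ± 0.34, adjusted p = 0.000749), low levels in both groups. The other members were the transcription factors MITF (-0.77, adjusted p = 0.00451) and SOX10 (-1.08, adjusted p = 0.0113, or 0.172 with all edge days in 1 fit), both lower, and KIT, which was higher.

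Few genes of the epidermis between the follicles were called. Of 15 suprabasal genes tested 1 was higher and 1 lower (median -0.03), of 11 basal genes 0 were higher and 3 lower (median -0.28), and of 12 enzymes of the lipid barrier 1 was higher and 2 lower (median -0.16). These shares were under the 20.4% and 20% of all genes, apart from the lower basal genes. With the days apart, each against all 6 day 0 samples, 2 of the 11 basal genes were higher and 1 lower on day 19 (median -0.01). On day 21, 0 were higher and 6 lower (median -0.72). Over all genes tested, 18.5% were higher and 17% lower on day 19, and 14.2% higher and 11.1% lower on day 21. KRT1, partner of KRT10 in the upper layers, gave -0.03 ± 0.27 (adjusted p = 0.938). TGM3, a transglutaminase of the cornified layer and of hair, fell (log2 fold change -1.44 ± 0.25, adjusted p = 0.00064) with every late sample under the day 0 range. TP63, the master transcription factor of basal keratinocytes, fell by 0.57 (adjusted p = 0.00158), and the other lower basal genes were the keratin KRT5 (-0.80, adjusted p = 0.0109) and the laminin chain LAMA3 (-0.56, adjusted p = 0.0147). With all edge days in 1 fit these calls were lost (adjusted p = 0.252, 0.119 and 0.162). The remaining calls of the epidermal lists, CASP14 (0.97, adjusted p = 0.0362) and ASPRV1 (0.93, adjusted p = 0.0355), proteases of cornification, and the lipid enzymes PNPLA1 (-0.63, adjusted p = 0.0242) and ACER1 (-0.73, adjusted p = 0.0271), were also lost in that fit (adjusted p = 0.12, 0.151, 0.246 and 0.19). The call of CASP14 was lost without the sample of day 0 (pigs 1323, 1326, 1327 or 1328), day 19 (pigs 1326, 1327 or 1328) or day 21 (pig 1323), with adjusted p from 0.0522 to 0.0757. The call of ASPRV1 was lost without the sample of day 0 (pigs 1323, 1324, 1326, 1327 or 1328), day 19 (pigs 1326, 1327 or 1328) or day 21 (pig 1323), with adjusted p from 0.051 to 0.0818. PNPLA1 lost its call without the sample of day 0 (pig 1325) or day 19 (pig 1328), with adjusted p from 0.05 to 0.0586, and ACER1 without the sample of day 0 (pigs 1324, 1327 or 1328) or day 21 (pig 1325), with adjusted p from 0.0526 to 0.0593. With the animal as a block CASP14 and ASPRV1 were not called (adjusted p = 0.132 and 0.128).

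Genes listed as switched on in keratinocytes beside a wound were higher in 6 of 7 tested (median 5.50), with their highest values on day 19. Of 14 listed, 8 were found by symbol, and the wound keratins KRT6A, KRT16 and KRT17 were among those that were not. S100A8, S100A9 and S100A12 are on the neutrophil list too, so the count does not single out keratinocytes. S100A9 (ENSSSCG00025058500), a calcium-binding alarmin of keratinocytes and neutrophils, ranged from 0.799 to 4.10 CPM (median 2.10) in day 0 skin. On day 19 it was 1458, 572 and 52.3 CPM and on day 21 12, 19.0 and 10.7 CPM. Every late sample exceeded every day 0 sample, but the day 19 samples of pigs 1326 and 1327 stood far above the other late samples. The change was 7.33 ± 1.40 on the log2 scale (adjusted p = 0.00122), 5.91 without pig 1326's day 19 sample and 3.42 without both, the last a comparison chosen after the values were seen. Its partner S100A8 (log2 fold change 6.11 ± 1.2, adjusted p = 0.00148, or 4.97 without pig 1326's day 19 sample) and the serpin SERPINB3 (log2 fold change 5.50 ± 0.89, adjusted p = 0.000363, or 4.84) had the same shape. Without the day 19 samples of pigs 1326 and 1327, S100A8 gave 2.88 and SERPINB3 3.93. LCN2, lipocalin 2, rose by a steadier 0.87 ± 0.13 (adjusted p = 0.000188). The wound keratin KRT6C was called higher (log2 fold change 3.29 ± 0.97, adjusted p = 0.0166), but not with the animal as a block (adjusted p = 0.208) nor without the day 19 samples of pigs 1326 and 1327 (adjusted p = 0.642), and its value was 2.34 without pig 1326's alone. KRT6B, a near-identical copy with which reads may have been shared, did not pass the test (2.09 ± 0.95, adjusted p = 0.094).

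Vessel genes were moderately raised. Of 13 tested genes of blood vessel endothelium 10 were higher and 0 lower (median 0.73). PLVAP (ENSSSCG00025015774), which forms the diaphragms of endothelial pores, ranged from 38.6 to 59.0 CPM (median 48.5) in day 0 skin. It was 138, 157 and 124 CPM on day 19 and 96.2, 124 and 99.5 CPM on day 21. The groups did not overlap and differed 2.46-fold (log2 fold change 1.30 ± 0.14, adjusted p = 1.69e-05). The growth factor receptor KDR (log2 fold change 1.32 ± 0.18, adjusted p = 9.47e-05), the adhesion gene CDH5 (log2 fold change 1.03 ± 0.16, adjusted p = 0.000315) the receptor TIE1 (0.73, adjusted p = 0.00127) and ANGPT2, made by vessels under remodelling (log2 fold change 1.16 ± 0.22, adjusted p = 0.00128), rose too. FLT1 and the tight junction gene CLDN5 did not pass the test (0.05 ± 0.10 and -0.04 ± 0.18, adjusted p = 0.731 and 0.894). Of 6 pericyte genes 4 were higher and 0 lower. RGS5 (ENSSSCG00025073877), a regulator of G protein signalling in pericytes, ranged from 98.6 to 220.5 CPM (median 141) in day 0 skin. It was 283, 248 and 539 CPM on day 19 and 326, 404 and 399 CPM on day 21 (log2 fold change 1.34 ± 0.23, adjusted p = 0.000503). The adhesion molecule MCAM (1.05, adjusted p = 3.9e-05) and the potassium channel subunits KCNJ8 (1.73, adjusted p = 0.000329) and ABCC9 (1.90, adjusted p = 0.00188) rose too. Lymphatic endothelium gave 4 higher and 0 lower of 7 tested, namely the receptor FLT4 (0.82, adjusted p = 0.00555), podoplanin PDPN (0.97, adjusted p = 0.00414), MMRN1 (1.12, adjusted p = 0.00101) and RELN (0.92, adjusted p = 0.000728), while PROX1, the transcription factor that defines lymphatic cells, gave -0.14 ± 0.40 (adjusted p = 0.805).

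Leukocyte genes were raised. Macrophage genes were higher in 12 of 13 tested and lower in 0 (median 1.33). MSR1 (ENSSSCG00025077256), a scavenger receptor, ranged from 0.692 to 1.77 CPM (median 1.47) in day 0 skin. It was 28.4, 14.3 and 11.5 CPM on day 19 and 14.0, 14.5 and 12.9 CPM on day 21. The lowest late sample was several times the highest day 0 sample (log2 fold change 3.54 ± 0.28, adjusted p = 2.09e-06). TREM2, a lipid-sensing receptor of tissue macrophages (log2 fold change 3.39 ± 0.42, adjusted p = 6.07e-05), ADGRE1, the F4/80 antigen (log2 fold change 3.02 ± 0.51, adjusted p = 0.000507), AIF1 (1.33, adjusted p = 0.000287), CD68 of lysosomes (1.43, adjusted p = 0.000735) and the complement chains C1QA, C1QB and C1QC (1.14, 1.41 and 1.43, adjusted p = 0.0014, 0.000127 and 0.000327) rose without overlap. GPNMB was not called (0.37 ± 0.19, adjusted p = 0.152). CSF1R lost its call without the day 0 sample of pig 1323, 1324, 1325 or 1328 (adjusted p from 0.0808 to 0.098). The same held without pig 1326's day 19 sample or the day 21 sample of pig 1323 or 1324 (adjusted p from 0.0678 to 0.115). With all edge days in 1 fit CSF1R, CD14 and CD163 lost their calls (adjusted p = 0.0729, 0.0548 and 0.0591). Total counts as library size left 10 macrophage genes higher.

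Lymphocyte genes were raised too, with 12 of 13 tested T and NK cell genes higher and 0 lower (median 2.26). CD3E (ENSSSCG00025008639), a chain of the T cell receptor complex, ranged from 0.791 to 1.69 CPM (median 1.19) in day 0 skin. It was 5.95, 8.07 and 6.02 CPM on day 19 and 16.3, 2.52 and 7.62 CPM on day 21. Late samples all lay above day 0 skin, with pig 1323 highest and pig 1324 lowest (log2 fold change 2.62 ± 0.39, adjusted p = 0.000195). CD3D (2.77, adjusted p = 0.00017), CD2 (2.26, adjusted p = 0.000172), the co-receptors CD4 (2.81, adjusted p = 0.000776) and CD8A (2.19, adjusted p = 0.00699), the kinase LCK (2.47, adjusted p = 0.000404) and NKG7 of cytotoxic granules (1.89, adjusted p = 5.81e-05) rose. FOXP3 of regulatory T cells did not pass the test (0.65 ± 0.51, adjusted p = 0.332). Among B and plasma cell genes 3 of 8 were higher and 0 lower. The largest change there was in JCHAIN (ENSSSCG00025037873), the chain that joins secreted IgA and IgM, with a range from 3.85 to 11.2 CPM (median 6.08) in day 0 skin, 105, 102 and 295 CPM on day 19 and 124, 22.8 and 119 CPM on day 21 (log2 fold change 4.22 ± 0.50, adjusted p = 4.11e-05). MZB1 of plasma cells (2.04, adjusted p = 0.0116) and the B cell kinase BLK (2.39, adjusted p = 0.00325) rose too, while CD79A and CD79B of the B cell receptor were not called (1.10 ± 0.57 and -0.52 ± 0.57, adjusted p = 0.141 and 0.494). Of 5 dendritic and Langerhans cell genes 3 were higher (CCR7 2.79, XCR1 1.72 and CD83 1.56) and 0 lower, CD207 of Langerhans cells giving -0.46 ± 0.64 (adjusted p = 0.595). Mast cell genes stayed mostly uncalled, 1 of 6 being higher, the receptor KIT (0.93, adjusted p = 0.016), which melanocytes share.

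Neutrophil-associated genes were higher in 7 of 8 tested and lower in 1, but 4 of the higher ones (S100A8, S100A9, S100A12 and CXCL8) are also made by keratinocytes, and MPO of neutrophil granules had too few reads to test. CSF3R, the receptor of granulocyte colony-stimulating factor, rose by 2.42 (adjusted p = 0.00383), or by 1.71 without pig 1326's day 19 sample. Without the day 19 samples of pigs 1326 and 1327 it rose by 1.41. AQP9, a glycerol channel, fell (log2 fold change -2.52 ± 0.27, adjusted p = 1.92e-05). Of 16 cytokines and chemokines tested 7 were higher and 1 lower. CCL2, which draws monocytes (log2 fold change 1.85 ± 0.21, adjusted p = 2.58e-05), TNF (1.67, adjusted p = 0.00513) and the interferon-induced CXCL10 (2.49, adjusted p = 0.000878, or 0.0682 with all edge days in 1 fit) rose, and CXCL14, a chemokine of resting epidermis, fell (log2 fold change -1.08 ± 0.20, adjusted p = 0.000976). IL6 and IL1B had too few reads to be tested over the late samples. Interferon-stimulated genes were higher in 11 of 13 tested and lower in 0 (median 1.55). IFI44L (log2 fold change 1.91 ± 0.24, adjusted p = 6.77e-05), IFI44 (1.55, adjusted p = 0.000421) and the RNA sensor IFIH1 (1.12, adjusted p = 0.00341) rose. ISG15, a ubiquitin-like protein, ranged from 8.51 to 23.1 CPM (median 14.9) in day 0 skin and was 645, 191 and 75.8 CPM on day 19 and 53.6, 19.4 and 18.5 CPM on day 21. Pig 1326 stood highest, and the change of 3.46 (adjusted p = 0.00453) was 2.23 without its day 19 sample. The change of ISG15 was 1.46 without the day 19 samples of pigs 1326 and 1327.

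Cell cycle genes lay close to day 0 levels. Of 27 tested 1 was higher (RRM2, a subunit of ribonucleotide reductase, 0.61, adjusted p = 0.0351) and 0 lower, with a median of 0.07, against 20.4% and 20% over all genes. The call of RRM2 was lost without the sample of day 0 (pigs 1323, 1325, 1326 or 1328), day 19 (pig 1327) or day 21 (pig 1325), with adjusted p from 0.0575 to 0.0784. MKI67 (ENSSSCG00025052720), the proliferation antigen, ranged from 26.5 to 52.1 CPM (median 40.3) in day 0 skin and was 43.1, 48.0 and 21.4 CPM on day 19 and 48.8, 47.4 and 39.8 CPM on day 21 (0.01 ± 0.21, adjusted p = 0.969, 95% interval -0.44 to 0.46). Immediate early genes, which respond to stimulation within minutes, were lower in 11 of 18 and higher in 1 (median -0.72). FOS (ENSSSCG00025046805), a subunit of the AP-1 transcription factor, ranged from 135 to 592 CPM (median 205) in day 0 skin and was 21.7, 20.9 and 15.8 CPM on day 19 and 26.1, 82.6 and 24.3 CPM on day 21. The groups did not overlap, and FOS was 8.67-fold lower (log2 fold change -3.12 ± 0.48, adjusted p = 0.00026). EGR1 (log2 fold change -1.81 ± 0.39, adjusted p = 0.00267), EGR2 (log2 fold change -1.78 ± 0.30, adjusted p = 0.000455), KLF4 (-1.06, adjusted p = 0.000514) and KLF2 (-0.68, adjusted p = 0.000918) fell. JUN gave 0.11 ± 0.15 (adjusted p = 0.593) and FOSL1, a FOS relative of migrating keratinocytes, rose (log2 fold change 2.10 ± 0.60, adjusted p = 0.0139). These genes also respond to the handling of tissue, which differed between an excised disk and a biopsy, and the part of handling was not tested.

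The remaining lists held few calls. Of 19 cholesterol synthesis genes 0 were higher and 1 lower (MSMO1, -0.40, adjusted p = 0.0164, or 0.16 with all edge days in 1 fit). Of 10 adipocyte genes 0 were higher and 1 lower, complement factor D of fat cells, CFD (log2 fold change -1.03 ± 0.16, adjusted p = 0.000291), while ADIPOQ, adiponectin, gave 0.45 ± 1.09 (adjusted p = 0.773). Of 4 skeletal muscle genes with enough reads, of 12 listed, 2 were lower and 0 higher. These were the muscle creatine kinase CKM (-3.36, adjusted p = 0.00101, -4.23 without pig 1324's day 21 sample) and the myosin MYH2 (-3.84, adjusted p = 0.00136, -3.14 without pig 1326's day 0 sample and -4.43 without its day 19 sample), whose adjusted p with all edge days in 1 fit was 0.0631 and 0.0764. Neither of the 2 erythrocyte genes tested, HBB and ALAS2, was called (1.44 ± 0.67 and 1.69 ± 0.79, adjusted p = 0.102 and 0.102).

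Beyond the lists, the 12 largest rises and 12 largest falls were taken among called genes with a symbol, a mean of at least 10 CPM in the higher group and no overlap between groups in that direction. The largest rise was in PRSS35 (ENSSSCG00025064998), a secreted serine protease homologue, which ranged from 0.35 to 2.53 CPM (median 1.90) in day 0 skin and was 681, 451 and 453 CPM on day 19 and 112, 352 and 399.7 CPM on day 21 (log2 fold change 7.81 ± 0.52, adjusted p = 7.22e-07). ADAM12 (ENSSSCG00025058995), a metalloproteinase of activated fibroblasts, ranged from 3.65 to 12.2 CPM (median 8.73) in day 0 skin and was 600.1, 519 and 719 CPM on day 19 and 307, 564 and 635 CPM on day 21, an even rise over all late samples (log2 fold change 6.00 ± 0.33, adjusted p = 2.32e-07). ECE2, an endothelin-converting enzyme (log2 fold change 7.27 ± 0.58, adjusted p = 2.09e-06), PLEKHG4 (log2 fold change 5.72 ± 0.46, adjusted p = 2.09e-06) and FRMD7 (log2 fold change 5.66 ± 0.41, adjusted p = 1e-06) also rose on both days. Genes in the set best known from leukocytes included TNFRSF8, the CD30 antigen of activated lymphocytes, with 151, 104 and 132 CPM on day 19 and 21.3, 107 and 80.2 CPM on day 21 against day 0 values from 0 to 1.44 CPM (median 0.704) (log2 fold change 7.09 ± 0.60, adjusted p = 3.05e-06). TNFRSF8 did not follow the summed T and NK lymphocyte genes. At the late edge their sum was highest in pig 1323's day 21 sample (135 CPM), where TNFRSF8 was lowest, and lowest in pig 1324's (45.45 CPM). Which cells carried TNFRSF8 was not measured. Another such gene was IL21R, a cytokine receptor (log2 fold change 5.71 ± 0.78, adjusted p = 0.000112, 5.05 without pig 1326's day 19 sample and 6.41 without pig 1327's day 0 sample). The others were S100A8, S100A9 and S100A12 and the neutrophil attractant CXCL8, which keratinocytes also make, and the gelatinase MMP9. The 3 S100 genes and CXCL8 were higher in every day 19 sample than in any day 21 sample, whereas the days overlapped for MMP9, and the difference between days was called for none of them. MMP9 ranged from 2.19 to 5.05 CPM (median 2.76) in day 0 skin and was 954, 527 and 110.4 CPM on day 19 and 82.0, 40.0 and 154 CPM on day 21 (log2 fold change 6.65 ± 0.81, adjusted p = 4.76e-05, 5.88 without pig 1326's day 19 sample). CXCL8 was 78.3, 41.2 and 8.83 CPM on day 19 and 5.98, 0.688 and 2.06 CPM on day 21 against 0 to 0.511 CPM on day 0 (log2 fold change 7.21 ± 1.26, adjusted p = 0.000639, 6.24 without pig 1326's day 19 sample and 8.04 without pig 1325's day 0 sample). S100A12 gave 5.55 ± 1.2 (adjusted p = 0.00266), or 4.25 without pig 1326's day 19 sample. Without the day 19 samples of pigs 1326 and 1327 together, S100A12 gave 2.31, CXCL8 4.83 and MMP9 4.97.

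The 12 falls included genes of gland and follicle epithelium. SLC26A4 (ENSSSCG00025063557), the anion exchanger pendrin, ranged from 6.07 to 34.9 CPM (median 12.2) in day 0 skin and was 2.35, 0 and 0.287 CPM on day 19 and 0.242, 0.115 and 0.452 CPM on day 21 (log2 fold change -4.79 ± 0.74, adjusted p = 0.00027, -6.15 without pig 1326's day 19 sample). LHX2 (ENSSSCG00025033432), a transcription factor of hair follicle stem cells, ranged from 24.6 to 58.9 CPM (median 36.3) in day 0 skin and was 0.248, 0 and 0.172 CPM on day 19 and 2.84, 2.69 and 2.52 CPM on day 21 (log2 fold change -4.78 ± 0.67, adjusted p = 0.000133). CLDN8 (ENSSSCG00025002595), a tight junction claudin, ranged from 23.2 to 60.0 CPM (median 35.5) in day 0 skin and was 4.58, 0 and 2.35 CPM on day 19 and 0.665, 1.72 and 3.03 CPM on day 21 (log2 fold change -4.27 ± 0.58, adjusted p = 0.000112). In each of these genes all late samples lay under the lowest day 0 sample. SHISA2, an antagonist of WNT and FGF receptors (log2 fold change -4.13 ± 0.64, adjusted p = 0.000296), and the smooth muscle actin ACTG2 (log2 fold change -3.82 ± 0.47, adjusted p = 5.59e-05) kept their calls in every setting tried. So did FBN3, a fibrillin (log2 fold change -4.31 ± 0.85, adjusted p = 0.00145, -5.41 without pig 1324's day 21 sample), and SYNDIG1 (log2 fold change -3.69 ± 0.74, adjusted p = 0.00174, -5.09 without that sample). TDO2, which degrades tryptophan (log2 fold change -4.64 ± 0.83, adjusted p = 0.000768), NXPE2 (log2 fold change -4.48 ± 0.92, adjusted p = 0.0019) and CHIA, an acidic chitinase (log2 fold change -3.86 ± 1.03, adjusted p = 0.00936), gave -5.55, -5.17 and -5.22 without pig 1326's day 19 sample. CP (ENSSSCG00025025447), ceruloplasmin, ranged from 342 to 2643 CPM (median 924) in day 0 skin and was 280.3, 0 and 21.3 CPM on day 19 and 0.181, 22.2 and 79.8 CPM on day 21. Pig 1326 was near the day 0 range, and the fold change (log2 fold change -4.09 ± 1.35, adjusted p = 0.0275) was -5.54 without its day 19 sample. The call was lost without the day 19 sample of pig 1328 (-3.90, adjusted p = 0.0556) or the day 21 sample of pig 1324 (-3.91, adjusted p = 0.0528).

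**Figure D3:**
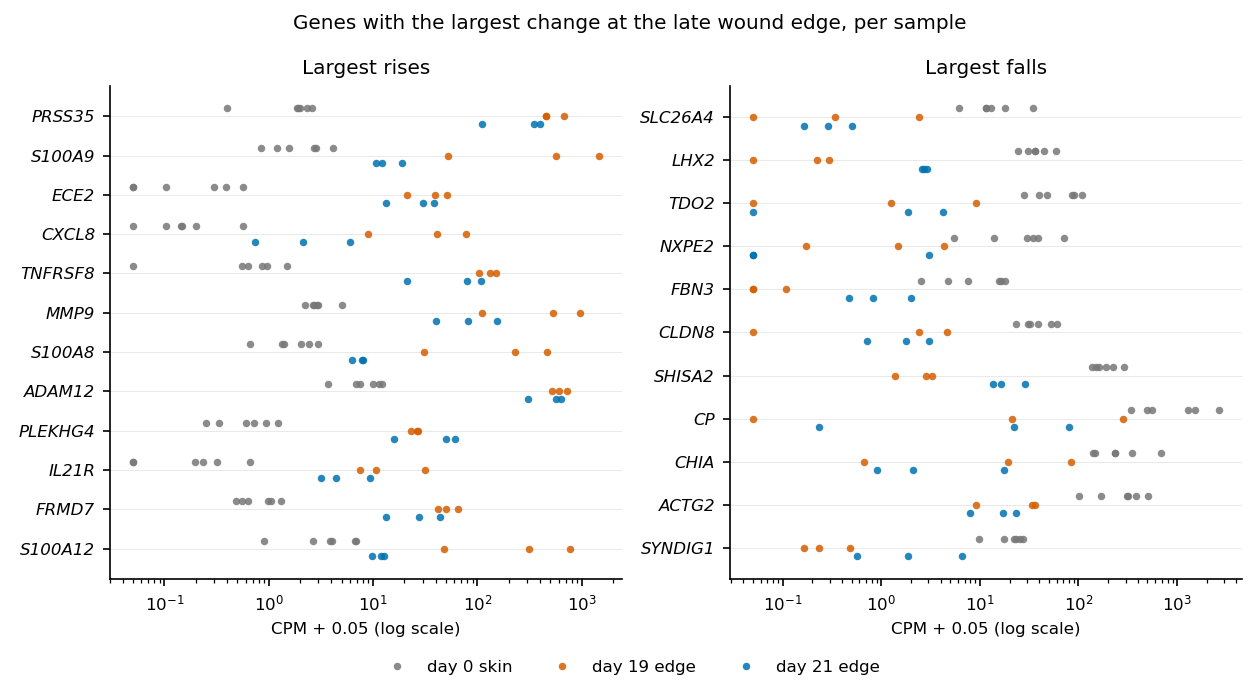
The 12 largest rises (left) and 11 of the 12 largest falls (right) at the late wound edge. Each point is 1 sample (grey, day 0 skin; orange, day 19 edge; blue, day 21 edge) at CPM + 0.05 on a log axis, so that a sample with no read stands at 0.05. PRSS35 and ADAM12 rose on both days, whereas S100A9 lay between 10.7 and 19.0 CPM on day 21 and between 52.3 and 1458 CPM on day 19.

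With the days apart, each was compared with all 6 day 0 samples in 1 fit over 15734 genes. Day 19 gave 2906 genes higher (18.5%) and 2673 lower (17%), and day 21 gave 2238 higher (14.2%) and 1744 lower (11.1%). With the animal as a block, the calls were 1683 and 1466 on day 19 and 1327 and 860 on day 21. The count of lower genes on day 21 was 845 without pig 1325's day 21 sample and 1118 without pig 1324's. The difference between the changes of the days, each taken against the day 0 skin of its own 3 pigs, was itself tested, and edgeR's quasi-likelihood test called 0 genes (lowest adjusted p = 0.107, 1022 genes under 0.05 unadjusted), whereas DESeq2 called 85 higher and 29 lower on day 21. Leaving out pig 1328's day 19 sample gave 56 higher and 27 lower in edgeR, leaving out pig 1324's day 0 sample gave 1 higher, and the block gave 16 higher. Contrasts between days below are therefore values side by side.

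Against all 6 day 0 samples, the log2 fold changes were 1.42 on day 19 and 1.48 on day 21 for COL3A1, 3.28 on day 19 and 3.14 on day 21 for PLOD2 and 4.64 on day 19 and 4.43 on day 21 for ASPN. For the whole fibrillar collagen list the median was 2.29 on day 19, with 9 of 10 higher, and 1.99 on day 21, with 8 higher. These medians are over 10 genes, COL2A1 included, whereas the 2.87 for both days together is over 9. Against the day 0 skin of each day's own pigs, COL3A1 gave 1.05 on day 19 and 2.00 on day 21. The 95% interval of that difference, day 21 minus day 19, was 0.15 to 1.72 for COL3A1, which excludes 0 but did not pass the adjusted test (adjusted p = 0.715), and -0.52 to 0.63 for PLOD2. Against all 6 day 0 samples, MYH11 gave -2.56 on day 19 and -2.53 on day 21, MSR1 gave 3.72 and 3.34, and CD3E gave 2.41 and 2.81.

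Against all 6 day 0 samples, the lists with medians furthest apart were those of wound-activated keratinocytes, neutrophils, interferon response and hair. Against the day 0 skin of each day's own pigs, the sebaceous gland list (median -2.03 on day 19 and 0.46 on day 21) was further apart than the interferon list (2.24 and 0.52). Those sebaceous medians are over different genes, 8 tested on day 19 and 7 on day 21. Over the same 8 genes, against all 6 day 0 samples, they were -1.79 and -1.04. S100A9 gave 8.30 on day 19 (adjusted p = 1.31e-05) and 2.67 on day 21 (adjusted p = 0.0157). MMP1, an interstitial collagenase, gave 7.03 on day 19 (adjusted p = 0.000128) and 2.66 on day 21 (adjusted p = 0.0618), and over both days 6.10, or 5.45 without pig 1326's day 19 sample and 5.43 without pig 1327's. ISG15 gave 4.32 on day 19 (adjusted p = 0.000102) and 1.00 on day 21 (adjusted p = 0.195), and interferon-stimulated genes were higher in 13 of 13 tested on day 19 and in 2 on day 21. The adjusted p of the difference between days was 0.466 for S100A9, 0.715 for MMP1 and 0.489 for ISG15. Hair follicle genes were lower in 15 of 16 tested on day 19 and in 4 of 16 on day 21. The log2 fold change of LAMB3, a laminin chain of the epidermal basement membrane, was 0.71 on day 19 (adjusted p = 0.0241) and -0.81 on day 21 (adjusted p = 0.0241), with adjusted p = 0.501 for the difference.

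**Figure D4:**
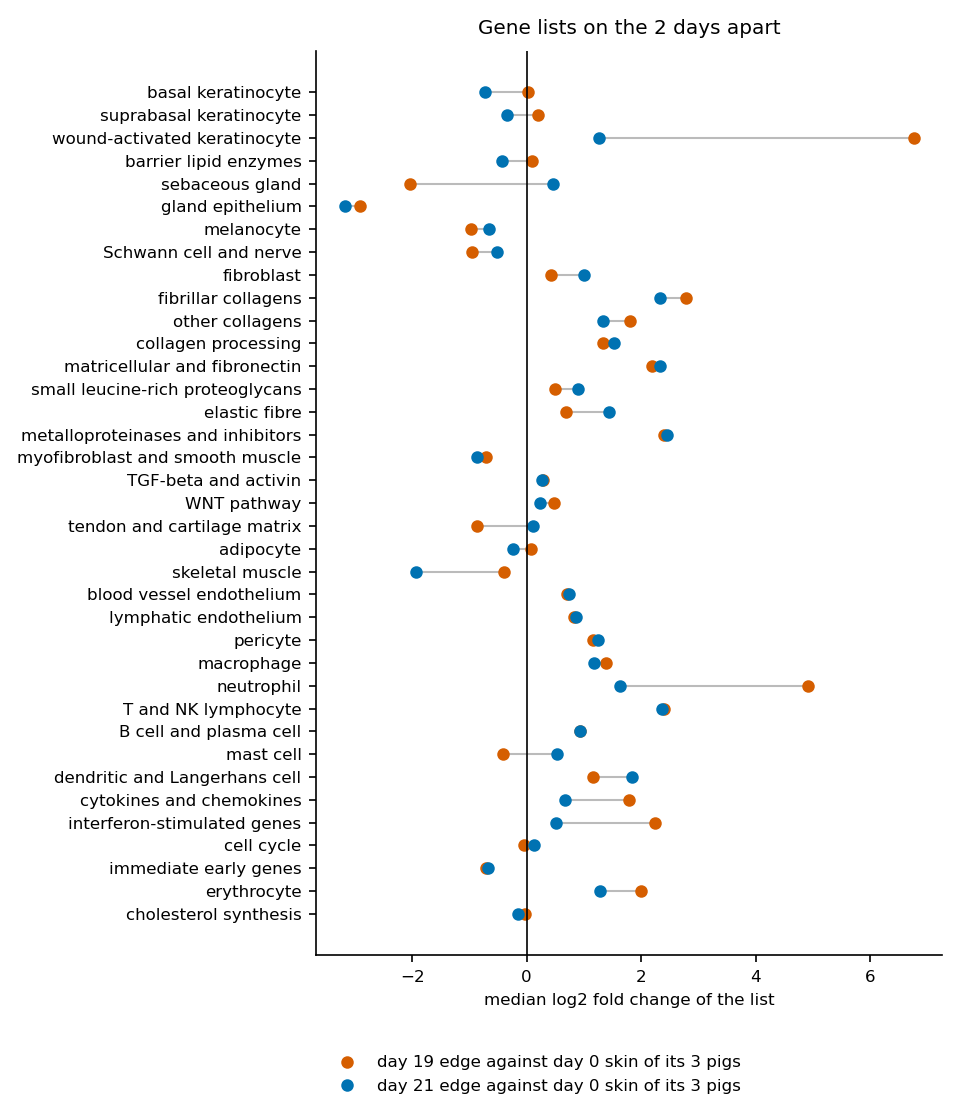
Median log2 fold change of each gene list on day 19 (orange) and day 21 (blue), each against the day 0 skin of its own 3 pigs, joined by a grey line; the hair follicle list is left out because 5 of its genes had no read on day 19. Wound-activated keratinocyte and neutrophil genes lie furthest apart, and fibrillar collagen (2.79 and 2.32), matricellular and T cell genes lie close together. The genes tested in a list can differ between the days (sebaceous gland, 8 on day 19 and 7 on day 21).

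To set the end of sampling beside the days before it, the late samples were compared with the 6 edge samples of days 15 and 16. Both sets came from the same pigs, but from the wound lettered D on days 15 and 16 and the wound lettered I on days 19 and 21. The time since wounding and the wound sampled therefore cannot be told apart in this comparison. Of 14501 genes tested, 2 (0.0138%) were higher, the homeobox gene HOXC10 and the zinc finger gene ZIC1, both transcription factors of body patterning, and 0 were lower, with 2268 genes under 0.05 unadjusted. HOXC10 gave a log2 fold change of 3.74 ± 0.50 and ZIC1 2.38 ± 0.32, both with adjusted p = 0.0352. Against day 0 skin, HOXC10 gave log2 fold change 3.16 ± 0.55, adjusted p = 0.000614 and ZIC1 log2 fold change 2.35 ± 0.48, adjusted p = 0.00196, the latter 3.06 without pig 1326's day 0 sample. DESeq2 called 446 higher and 177 lower in the comparison with days 15 and 16. Leaving out pig 1323's day 21 sample gave 240 higher and 23 lower in edgeR, and leaving out any 1 of 9 other libraries, pig 1326's day 19 sample among them, gave 0 calls higher. Over the time course, COL3A1 had a median of 5293 CPM at the edge on day 1, against 22094 and 42845 on days 7 and 13, 57990.1 and 69451 on days 19 and 21, and 19522 in day 0 skin, in CPM scaled over all edge and day 0 samples. The medians of S100A9 were 2500.4, 268 and 616 CPM on days 13, 16 and 19, and 25.8 and 12.7 CPM on days 15 and 21. Days 13, 16 and 19 were sampled in pigs 1326, 1327 and 1328 and days 15 and 21 in the others, so steps between neighbouring days and between sets of pigs cannot be told apart. The wounds sampled changed with the day too, being C and J on day 13, D on days 15 and 16 and I on days 19 and 21.

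**Figure D5:**
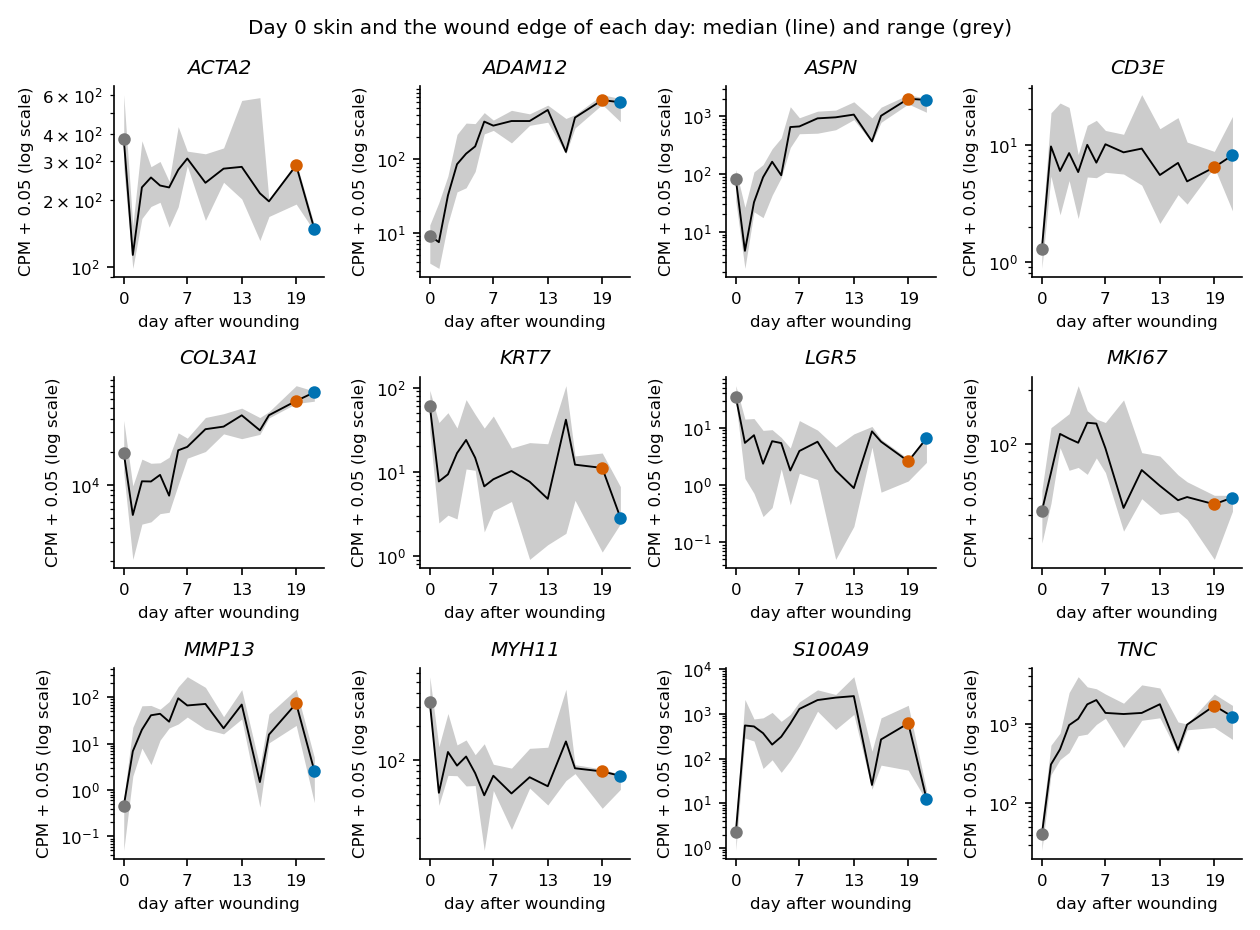
Median CPM + 0.05 (line, log axis) and range (grey band) of 12 genes over day 0 skin (grey point, 6 samples) and the wound edge of each sampling day, with day 19 in orange and day 21 in blue (3 samples each). By their medians, COL3A1, ASPN and ADAM12 lie highest at the late edge, MYH11 and LGR5 lie under day 0 skin from day 1 on (the range of MYH11 on day 15 reaches into that of day 0), and S100A9 and MMP13 are lower on day 15 than on day 13 and on day 21 than on day 19, days on which the pigs sampled differ.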

How the data were processed

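RNA was extracted from skin and wound biopsies of 6 pigs, and poly-A enriched libraries were sequenced as read pairs by a service provider, which removed adapter and low-quality reads, aligned the rest and counted reads per gene. The gene counts deposited by the authors were used as whole numbers, with no normalization. The aligner, genome build and strandedness of counting were not given in the sources used here, so reads of overlapping or antisense genes may have been counted together. Genes lie on 2337 contigs, for which no positions are given. The FPKM table of the authors was not used. All 150 samples matched a count column, and 0 columns were left unmapped. Groups came from the labels of day, location and animal, with 1 biopsy per animal on days 19 and 21.

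Of 30461 genes, 12300 were named by the name column and 9387 by a protein match in the description, and 8774 had no name. Listed genes that matched no symbol are not analysed here, and 1 of the 12 largest falls and a few list members that the counts include are not reported here by name. The members and the gene lists were chosen with earlier results of these data known. Counts were tested in R 4.3.3 with edgeR 4.0.16, whose filterByExpr left 14743 genes for the late edge (thresholds of 10 counts per sample and 15 in all). Scaling was by TMM, and the two-sided quasi-likelihood test was adjusted by Benjamini-Hochberg over all genes tested. Days 19 and 21 shared 1 fit with day 0 skin, and their difference was taken between changes from the day 0 skin of each day's own pigs. The named genes were the 12 largest rises and 12 largest falls among called genes with a symbol, at least 10 CPM in the higher group and no overlap, the 5 genes with most counts at the late edge, and up to 4 members of each list with the lowest adjusted p, with other members allowed. On counts simulated from the late edge and day 0 samples (14554 genes tested), the test recovered 62 of 100 genes changed by 1 on the log2 scale and 95 of 100 changed by 2, with 4 false calls among 161. The changed genes were split evenly up and down and drawn only from genes with many reads. Far more genes were called in the data (3009 higher and 2950 lower), so these rates need not hold for them.

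Alternatives were DESeq2 1.42.0, its size factors, total counts as library size, no filter, all edge days in 1 fit, each library left out in turn, and the animal as a block. The fit of all edge days held no term for the animal, though each pig gave many edge samples. Samples of the same pig were treated there as independent. The pairing came from the animal itself: the replicate numbers are animal IDs, shared by day 0 and edge samples. Deviations were taken from the mean of each set of 3 pigs, for day 0 and late samples apart. Those of the same animal correlated at -0.134 to 0.237 (mean 0.0745). Among the 3 day 0 samples of its set, the animal's own gave the highest correlation in 2 of 6 animals. Figures and counts of calls were compiled in Python 3.11.15 (pandas 2.3.3, numpy 2.4.6). Total counts ranged from 15698806 to 21415735 in day 0 skin and from 16337912 to 19645023 at the late edge, so that 3 counts correspond to 0.14 to 0.194 CPM, a floor that covers counting error only. The 12 genes of the time course were chosen after their values were seen. The wound centre was not analysed here, and other edge days enter only the time course and the comparison with days 15 and 16.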

Additional observations from a re-analysis of the deposited data

Results flagged for a closer look

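Of 124 groups of 6 samples tested for a sample standing apart (gap to the nearest sample over the whole range, taken on log2(CPM + 0.5), above Dixon's critical value of 0.625), 13 passed, where chance would give about 6.2. In day 0 skin, pig 1324 had the lowest PRSS35 (0.35 CPM against 1.84 to 2.53 CPM in the others, ratio 0.796), the highest MMP9 (5.05 CPM against 2.19 to 2.90 CPM, ratio 0.676) and the lowest summed hair follicle genes (98.5 CPM against 5213 to 20682 CPM, ratio 0.742). Pig 1325 had the highest CXCL8 in day 0 skin (0.511 CPM against 0 to 0.15 CPM, ratio 0.628), and pig 1323 the highest summed cell cycle genes (712.6 CPM against 626 to 649.9 CPM, ratio 0.713).

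At the late edge, the day 21 sample of pig 1323 was lowest for PRSS35 (112 CPM against 352 to 681 CPM, ratio 0.634), TNFRSF8 (21.3 CPM against 80.2 to 151 CPM, ratio 0.675), the summed collagen processing genes (4475 CPM against 5687 to 6351 CPM, ratio 0.684) and the summed lymphatic endothelium genes (137 CPM against 207 to 254 CPM, ratio 0.671), and highest for the summed dendritic and Langerhans cell genes (61.8 CPM against 33.6 to 40.7 CPM, ratio 0.687). The day 19 sample of pig 1326 was highest for SLC26A4 (2.35 CPM against 0 to 0.452 CPM, ratio 0.630), the summed macrophage genes (2027 CPM against 1074 to 1295 CPM, ratio 0.706) and the summed cytokines and chemokines (803 CPM against 434.7 to 543.5 CPM, ratio 0.636).

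Among 459 listed or named genes checked, 5 changed one way in all 3 animals of day 19 and the other way in all 3 animals of day 21, relative to the day 0 skin of the same animals. How many of the 459 would do so by chance was not estimated, so the 5 are given as values only. The day 21 change minus the day 19 change, on the log2 scale, was 0.62 for the mitotic kinesin KIF11, -3.49 for the chemokine CXCL2, 2.53 for COL6A5, -1.23 for the tropomyosin TPM2 and -3.59 for KRT6B. None passed edgeR's test of the difference (adjusted p = 0.677, 0.384, 0.755, 0.715 and 0.661), and the days came from different animals.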

How the results depend on the processing

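Of 269 listed or named genes called in the late edge against day 0 skin, 217 kept call and direction in all 19 alternatives, and 0 reversed. Of the 24 named genes, CP lost its call without pig 1328 on day 19 or pig 1324 on day 21. Leaving out 1 library cost 4 to 13 calls, and 22 were lost without the day 19 samples of pigs 1326 and 1327, a comparison chosen after seeing the data. With the animal as a replicate block, 22 of the 269 were lost and the overall counts were 2668 higher and 2622 lower, of which 5060 matched the calls without pairing. A 2-fold minimum left 1473 higher and 1053 lower genes. Total counts as library size gave 5188 lower genes for the late edge, 4990 for day 19 and 3331 for day 21. The block gave 1683 higher and 1466 lower on day 19 and 1327 and 860 on day 21. Using only the day 0 skin of the same animals gave 1805 higher and 1359 lower on day 19 and 1142 lower on day 21. Without 1 library, counts ranged from 2739 to 3018 higher and 2503 to 2893 lower for the late edge. They ranged from 2190 to 2952 and 1903 to 2682 for day 19, and from 1558 to 2430 and 845 to 2026 for day 21. The 845 came without pig 1325 and 1118 without pig 1324 on day 21, against 1744 with all samples. For the difference between days, with 0 calls, DESeq2 gave 85 higher and 29 lower. The block gave 16 higher, no filter 5 higher, and all edge days in 1 fit 1 lower. Leaving out 1 library gave 0 to 56 higher and 0 to 27 lower, the most without pig 1328 on day 19. For the late edge against days 15 and 16, with 2 higher and 0 lower, DESeq2 gave 446 and 177, all edge days in 1 fit 324 and 73, and the block 10 lower. Without pigs 1326 and 1327 on day 19 there were 5 higher. Leaving out 1 library gave 0 to 240 higher and 0 to 23 lower, the most without pig 1323 on day 21. The cause of these shifts was not tested. At this depth 3 counts equal 0.14 to 0.194 CPM, so lower levels cannot be told from 0.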
